A study of Homo sapiens with 6 samples.

Results

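To describe how developmental transcription factors responded to the loss of ZNF768, the HOX, SOX, FOX, PAX and LHX families and the sine oculis homeobox genes were followed in U87 cells. Genes were chosen by their symbols, as HOXA to HOXD, SOX, PAX, LHX or the sine oculis prefix with a number, or FOX with a letter and a number. SOX30, FOXM1, FOXJ1 and antisense genes were left out, and the probeset with the highest mean over the 6 arrays stood for each gene. In this way, 104 of the 14884 named genes were included, of 123 family genes in the RefSeq annotation. The other 19 were not analysed here, and they include 10 of the 11 HOXA genes.

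U87 is an established human glioblastoma cell line. Cells were infected with lentiviruses for the knockdown of ZNF768, selected with puromycin, and harvested 96 h after infection, and the other group holds control cells. What the control cells carried, and which of the study's hairpins was used for the arrays, is not given in the sources used here. Each group had 3 biological replicates on Affymetrix Human Gene 2.0 ST arrays, which hold 53617 probesets, and values are log2 expression values. Array medians ran from 6.398 to 6.444, and levels are given as the distance of a gene from that median. Since a probeset's brightness also depends on its probes, levels were not compared between single genes, and no background level is known for a probeset. Correlations across probesets were at least 0.992 between arrays of the same group and at most 0.980 between groups. In bulk RNA, fewer cells of a type and less RNA per cell cannot be told apart.

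ZNF768 itself was at 8.49, 8.54 and 8.54 on the control arrays and 7.02, 7.14 and 7.31 on the depleted arrays. The groups did not overlap, and the level fell to 0.388 of the control (log2 fold change -1.36, SE 0.0851, adjusted p = 1.50e-04, limma).

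The proteins of these families bind DNA through domains that define each family. HOX, LHX, sine oculis and many PAX proteins carry homeodomains, PAX proteins also a paired domain, SOX proteins an HMG box and FOX proteins a forkhead domain. HOX genes lie in clusters in which the order of the genes follows the head-to-tail order of the body parts they pattern. PAX, sine oculis and EYA proteins act in one network in eye, ear and kidney development. In the brain, SOX2 marks neural stem cells and SOX9 glial precursors, and both are well known in glioblastoma.

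Of the 104 genes, 8 rose and 11 fell past limma's test at an adjusted p under 0.05, whereas 85 did not pass it. The genes that passed were 18.3% of the members, against 33.4% of all 14884 genes. By direction, 7.69% of the members rose and 10.6% fell, against 16.6% and 16.8% of all genes. Both shares were below the background of this comparison. Without the adjustment, 15 of the 104 members rose and 15 fell at p under 0.05 in limma's test. Over all 14884 genes, 3548 rose and 3152 fell at this threshold, which are larger shares. The median log2 fold change was 0.06 over the members and 0.04 over all genes.

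The changes were small. Only FOXL1 fell at least 2-fold and no member rose that far, whereas 3.37% of all genes fell and 1.22% rose at least 2-fold past the test. The 3 values of each group were free of overlap in 42 members, or 40.4%, against 51.5% of all genes, and the 19 genes past the test were among them. In the 85 genes that did not pass, log2 fold changes ran from -0.29 to 0.27. All 85 confidence intervals (95%) lay within a change of 1 on the log2 scale in either direction, and 80 of them within 0.5.

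**Figure D1:**
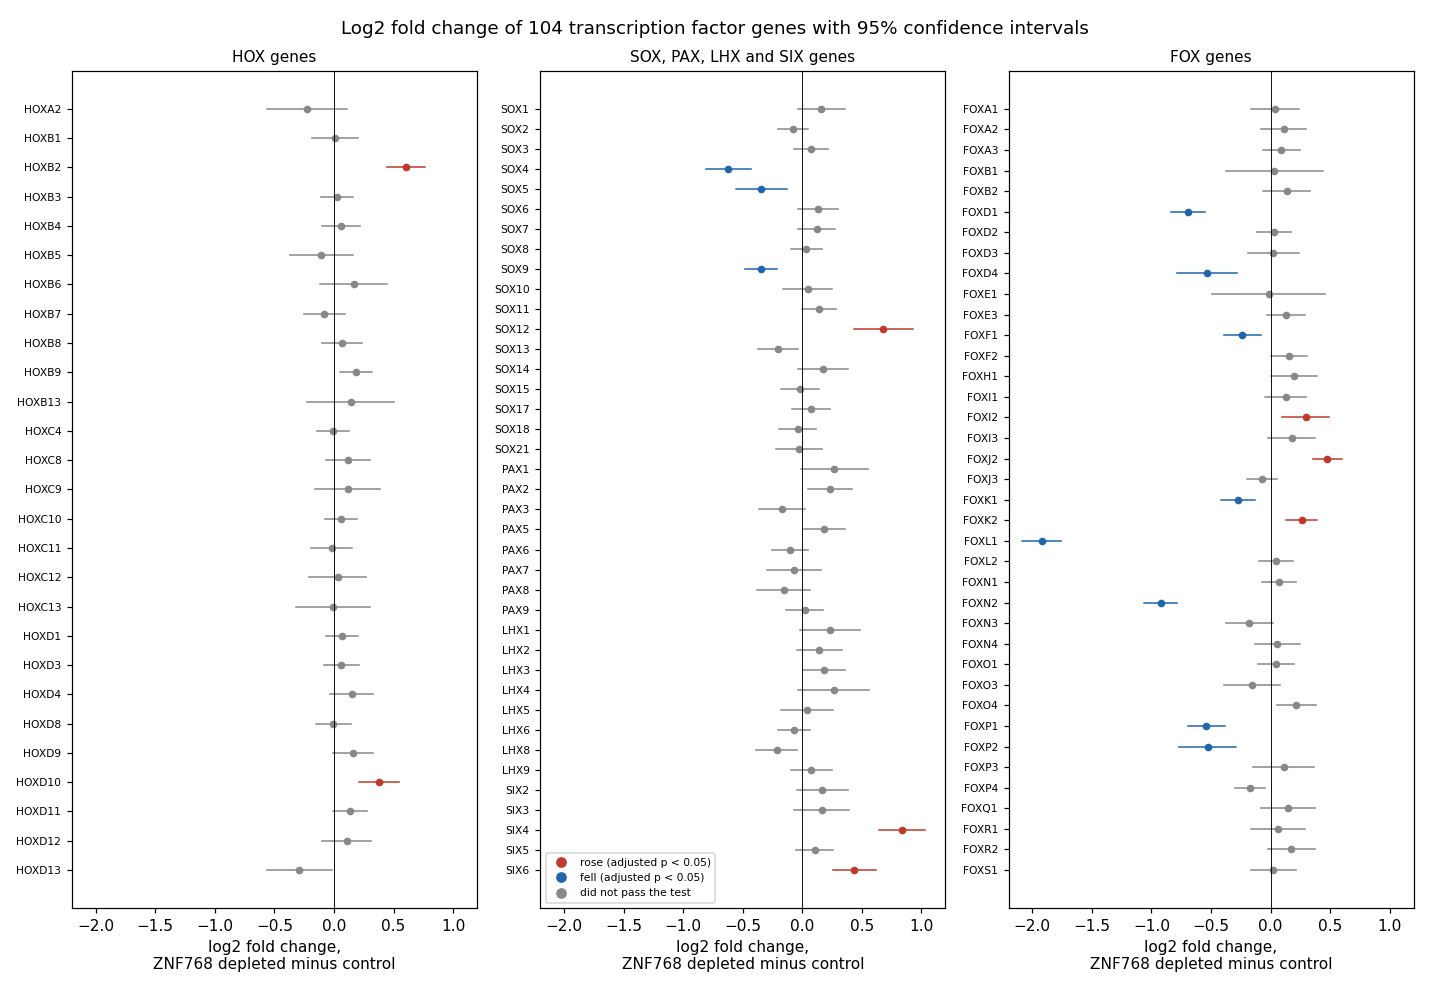
Log2 fold change of each of the 104 genes (x axis, ZNF768 depleted minus control, with 95% confidence interval), in panels by family, coloured by whether the gene rose, fell or did not pass limma's test. Most intervals cover 0, FOXL1 stands at -1.92, and SIX4 at 0.84 is the highest.

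Most of these genes were above the array median. A total of 73 members lay above the median of every array (70.2%, against 66.7% of all genes), 22 lay below it on all arrays (21.2%, against 25.3%) and 9 lay on both sides. Of the 73, 7 rose and 11 fell, which is 24.7%, against 45% of all genes above the median. These groups were not matched for level. The median distance from the array median was 0.93 in the 73 and 2.11 in all genes above it. Over all members it was 0.54, against 1.09 over all genes. None of the 22 passed the test, against 4.3% of all genes below the median. SIX6, which lay on both sides, was the other gene past the test.

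**Figure D2:**
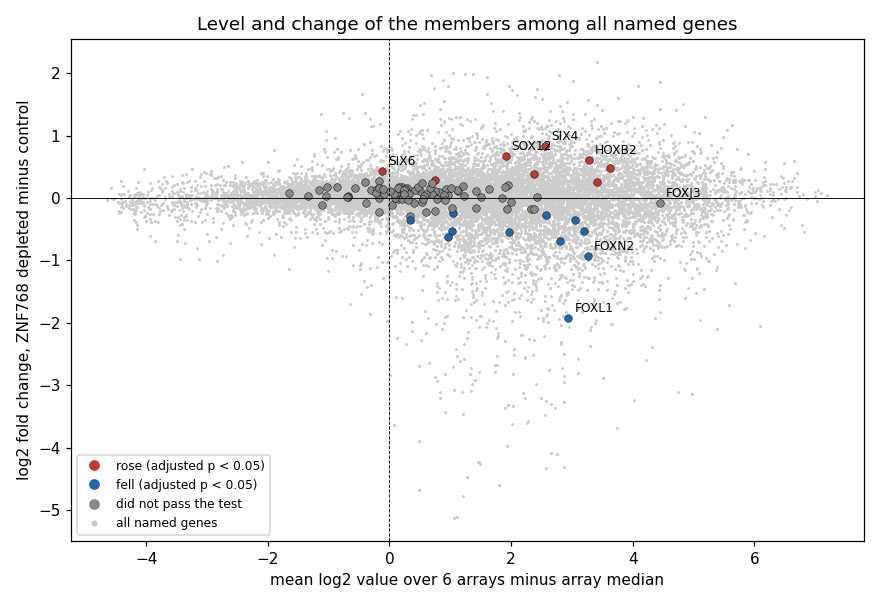
Log2 fold change (y axis, ZNF768 depleted minus control) against the mean log2 value over 6 arrays minus the array median (x axis), with the 104 genes drawn over all 14884 named genes in light grey. The members that rose or fell lie to the right of the median except SIX6 at -0.12, and members on the far left lie close to 0 on the y axis.

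Without FOXM1 and FOXJ1, 38 FOX genes were measured, the largest of these families. Of these, 3 rose and 8 fell, and their median log2 fold change was 0.05. The share past the test was 28.9%, against 33.4% of all genes. FOXM1, left out by the rule, fell (log2 fold change -3.61, SE 0.0777, adjusted p = 6.24e-06, limma). FOXL1, a forkhead factor of the mesenchyme under the gut epithelium, was at 10.26, 10.34 and 10.37 on the control arrays and 8.31, 8.41 and 8.48 on the depleted arrays. Every depleted array was below every control array, and the level fell to 0.264 of the control (log2 fold change -1.92, SE 0.0688, adjusted p = 2.28e-05). FOXF1, another mesenchymal forkhead factor, shares a cluster on chromosome 16 with FOXL1 and with FOXC2, which was not analysed here. FOXF1 was at 7.56, 7.61 and 7.56 on the control arrays and 7.28, 7.44 and 7.31 on the depleted arrays. It fell to 0.849 of the control without overlap (log2 fold change -0.24, SE 0.0652, adjusted p = 0.0459). The call was lost without control replicates 1, 2 and 3 or depleted replicates 1 and 3 in turn (adjusted p = 0.0902 to 0.132).

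FOXN2, a forkhead factor that is little characterised, was at 10.10, 10.14 and 10.17 on the control arrays and 9.25, 9.16 and 9.24 on the depleted arrays. This was the second largest fall among the members, again without overlap (log2 fold change -0.92, SE 0.0577, adjusted p = 1.50e-04). FOXD1, a factor of the kidney stroma and the developing retina, was at 9.55, 9.64 and 9.52 on the control arrays and 8.86, 8.87 and 8.90 on the depleted arrays (log2 fold change -0.69, SE 0.0589, adjusted p = 4.51e-04). The depleted arrays were close to each other and below all control arrays. A second FOXD1 probeset, near the array median, had a log2 fold change of -0.16 and did not pass (adjusted p = 0.316). FOXD4 was at 9.97, 9.81 and 9.87 on the control arrays and 9.44, 9.47 and 9.14 on the depleted arrays, and its lowest depleted value came from replicate 3 (log2 fold change -0.53, SE 0.103, adjusted p = 0.0123). FOXD4 has near-identical copies, so which gene its probeset reads is uncertain. The copies FOXD4L1, FOXD4L5 and FOXD4L6 had log2 fold changes of -0.01, 0.21 and 0.45, none past the test.

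FOXP1 and FOXP2, repressors of one subfamily with roles in lung, heart and neuronal development, both fell. FOXP1 was at 8.63, 8.63 and 8.72 on the control arrays and 8.20, 8.11 and 8.05 on the depleted arrays (log2 fold change -0.54, SE 0.0647, adjusted p = 0.00175). FOXP2, known for its part in speech, was at 7.71, 7.61 and 7.81 on the control arrays and 7.24, 7.004 and 7.30 on the depleted arrays (log2 fold change -0.53, SE 0.0984, adjusted p = 0.0107). In both genes the control arrays were all above the depleted ones, and the 2 changes were of like size. The other members of the subfamily did not pass, with -0.17 for FOXP4 (adjusted p = 0.0613) and 0.11 for FOXP3 (adjusted p = 0.523).

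FOXK1 and FOXK2, paralogs that repress autophagy genes and promote glycolysis, moved in opposite directions. FOXK1 was at 9.10, 9.18 and 9.13 on the control arrays and 8.82, 8.84 and 8.93 on the depleted arrays and fell (log2 fold change -0.27, SE 0.0597, adjusted p = 0.0199). FOXK2 was at 9.70, 9.71 and 9.71 on the control arrays and 9.96, 9.92 and 10.02 on the depleted arrays and rose (log2 fold change 0.26, SE 0.0547, adjusted p = 0.0167). Neither gene overlapped between the groups. FOXK1 lost its call without control replicates 2 and 3 or depleted replicates 1 and 2 in turn (adjusted p = 0.0540 to 0.0706). FOXK2 lost its call without control replicate 2 (adjusted p = 0.0545).

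The largest rise among forkhead genes was that of FOXJ2, a broadly expressed activator, at 9.80, 9.82 and 9.80 on the control arrays and 10.30, 10.29 and 10.25 on the depleted arrays. The arrays of each group lay close together, and the groups were well apart (log2 fold change 0.48, SE 0.0511, adjusted p = 0.00112). Its relative FOXJ3 was at 10.88, 10.91 and 10.91 on the control arrays and 10.85, 10.80 and 10.83 on the depleted arrays. The depleted arrays were lower by a small margin, and FOXJ3 did not pass (log2 fold change -0.07, adjusted p = 0.372). FOXI2 was at 7.17, 7.01 and 6.90 on the control arrays and 7.33, 7.35 and 7.29 on the depleted arrays and passed the test by a small margin (log2 fold change 0.29, SE 0.0820, adjusted p = 0.0482). FOXI2 was no longer called without control replicates 2 and 3 or depleted replicates 1, 2 and 3 in turn (adjusted p = 0.0977 to 0.129).

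The FOXO genes, which are held in the cytoplasm by AKT and SGK kinases and drive genes of cell cycle arrest, stress resistance and metabolism when in the nucleus, did not pass the test. Log2 fold changes were 0.04 for FOXO1 (adjusted p = 0.664), -0.15 for FOXO3 (adjusted p = 0.330) and 0.22 for FOXO4 (adjusted p = 0.0709). The FOXO3 value is uncertain because of the near-identical copy FOXO3B. Among FOXO regulators, 7 of 15 listed genes were measured. Of these, 3 rose and none fell, where 16.6% of all genes rose and 16.8% fell, and the median log2 fold change was 0.21. SGK1, a kinase that phosphorylates FOXO proteins, rose to 1.72 times the control (log2 fold change 0.78, SE 0.0562, adjusted p = 2.55e-04). PDPK1, which activates AKT and SGK, rose as well (log2 fold change 0.38, SE 0.0653, adjusted p = 0.00734), and AKT2 was the third. Of 17 measured genes known to be regulated by FOXO proteins, 3 rose and 3 fell, with a median of 0.02. Over all genes the shares were again 16.6% and 16.8%.

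Among those that rose were SESN1, a stress-induced inhibitor of mTORC1 (log2 fold change 0.57, SE 0.0894, adjusted p = 0.00502), and IRS2, an adaptor of the insulin receptor (log2 fold change 0.33, SE 0.0678, adjusted p = 0.0162). Those that fell included BCL6, a transcriptional repressor (log2 fold change -0.64, SE 0.0613, adjusted p = 6.94e-04), and FBXO32, a ubiquitin ligase of muscle wasting (log2 fold change -0.32, SE 0.0842, adjusted p = 0.0386). IRS2 was no longer called without depleted replicates 2 and 3 in turn (adjusted p = 0.0541 to 0.0549). FBXO32 was no longer called without control replicates 2 and 3 or depleted replicates 1, 2 and 3 in turn (adjusted p = 0.0630 to 0.120). The calls of SGK1, PDPK1, SESN1 and BCL6 stayed whichever sample was left out.

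**Figure D3:**
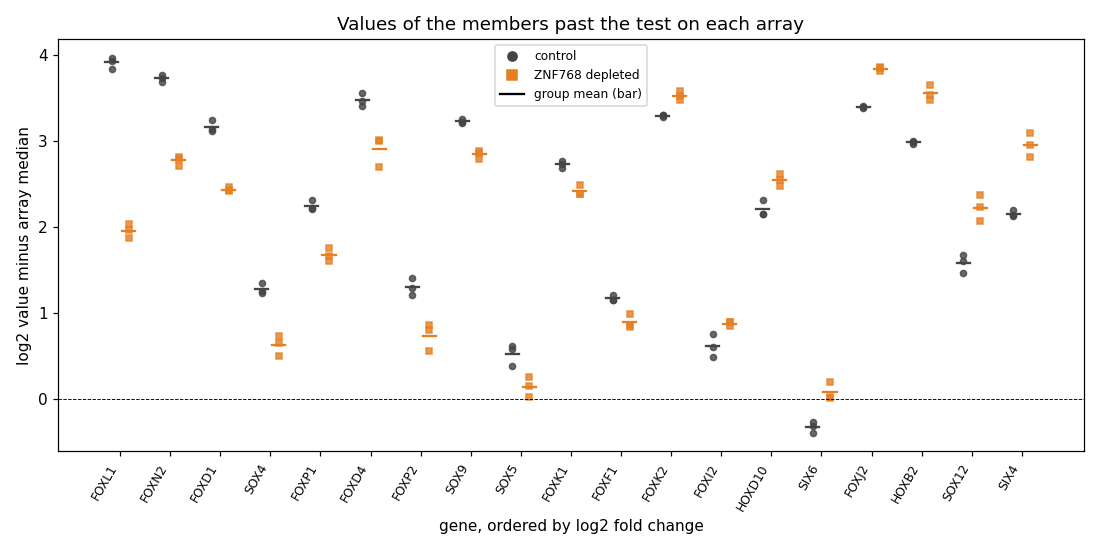
Log2 values minus the array median (y axis) on each of the 6 arrays for the 19 genes past the test (x axis, ordered by log2 fold change), with circles for control, squares for ZNF768 depleted cells and bars for group means. No gene has a depleted array inside the range of its control arrays, and SIX6 goes from below to above the median (dashed line).

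Of the 18 SOX genes other than SOX30, all measured, 1 rose and 3 fell, and the median log2 fold change was 0.04. This is 22.2% past the test, against 33.4% of all genes. SOX30, left out by the rule, rose (log2 fold change 1.98, SE 0.142, adjusted p = 2.55e-04, limma). SOX4 and SOX12 belong with SOX11 to the SoxC group, activators of neuronal and mesenchymal progenitors. SOX4 was at 7.65, 7.66 and 7.75 on the control arrays and 6.94, 7.18 and 7.09 on the depleted arrays, with every depleted array lower (log2 fold change -0.62, SE 0.0795, adjusted p = 0.00229). SOX12 was at 8.02, 7.87 and 8.08 on the control arrays and 8.50, 8.83 and 8.68 on the depleted arrays, with every depleted array higher (log2 fold change 0.68, SE 0.103, adjusted p = 0.00442). These paralogs moved in opposite directions. The second probeset of SOX12 also rose, by 0.26 (adjusted p = 0.0226), a smaller change than the 0.68 of the brightest. SOX11 lay below the median on all arrays and did not pass (log2 fold change 0.14, adjusted p = 0.161).

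Since they are members of one subgroup with opposite changes, the upstream regions of SOX4 and SOX12 are shown, from RefSeq on the GRCh38.p14 assembly. Each is the 250 bases before the annotated start of the gene, 5′ to 3′ along its strand, SOX4 from chr6:21593501-21593750 and SOX12 from chr20:325302-325551, both on the plus strand. Capitals mark CCAAT on either strand, the core that the trimeric factor NF-Y binds, and a copy on the other strand reads ATTGG here.
SOX4: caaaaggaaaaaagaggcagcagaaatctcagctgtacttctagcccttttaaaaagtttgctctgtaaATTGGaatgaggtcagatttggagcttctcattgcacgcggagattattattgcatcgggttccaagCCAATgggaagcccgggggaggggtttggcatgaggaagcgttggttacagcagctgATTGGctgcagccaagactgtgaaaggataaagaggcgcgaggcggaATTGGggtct
SOX12: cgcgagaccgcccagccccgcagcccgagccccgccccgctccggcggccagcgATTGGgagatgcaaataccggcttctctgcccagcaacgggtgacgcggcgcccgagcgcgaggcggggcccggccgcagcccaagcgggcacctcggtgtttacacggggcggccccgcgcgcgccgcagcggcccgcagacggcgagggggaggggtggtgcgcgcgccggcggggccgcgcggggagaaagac
SOX4 had 4 such copies and SOX12 1, and the GC content was 48.8% in SOX4 and 79.2% in SOX12. A match of these letters is a description of the sequence and no evidence of a bound factor.

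SOX9, a factor of glial precursors and cartilage, was at 9.62, 9.63 and 9.66 on the control arrays and 9.30, 9.24 and 9.33 on the depleted arrays. The decrease was small and free of overlap (log2 fold change -0.35, SE 0.0543, adjusted p = 0.00517). Its SoxE relatives SOX8 and SOX10 did not pass, with log2 fold changes of 0.03 and 0.04. SOX5, which works with SOX9 in cartilage and belongs to the SoxD group, was at 6.80, 6.99 and 7.02 on the control arrays and 6.69, 6.47 and 6.59 on the depleted arrays and fell by a like amount (log2 fold change -0.35, SE 0.0891, adjusted p = 0.0368). Its call was lost without control replicates 2 and 3 or depleted replicates 2 and 3 in turn (adjusted p = 0.0950 to 0.115). The other SoxD genes, SOX6 and SOX13, were at 0.13 (adjusted p = 0.250) and -0.20 (adjusted p = 0.0928).

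SOX2, the stem cell factor, lay below the median on all 6 arrays, as did SOX1 and SOX3 of the same group. SOX2 was at 6.09, 6.09 and 6.06 on the control arrays and 5.97, 5.999 and 6.04 on the depleted arrays. The groups did not overlap but lay close together, and SOX2 did not pass (log2 fold change -0.08, adjusted p = 0.364). Of the 6 measured cartilage and glial genes that SOX proteins regulate, only MITF passed, where 33.4% of all genes did. MITF is the melanocyte and lysosome factor. It rose from 6.29 ± 0.08 to 6.82 ± 0.12 (SD, n = 3 each; log2 fold change 0.53, SE 0.0834, adjusted p = 0.00541). The cartilage proteoglycan gene ACAN, a SOX9 target, did not pass (log2 fold change 0.05, adjusted p = 0.674).

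Of 27 HOX genes measured, 2 rose, none fell, and 20 lay above the median of all arrays. The share past the test was 7.41%, against 33.4% of all genes. HOXB2, a gene of hindbrain patterning, was at 9.41, 9.37 and 9.41 on the control arrays and 9.91, 9.99 and 10.10 on the depleted arrays, with all depleted arrays higher (log2 fold change 0.60, SE 0.0670, adjusted p = 0.00126). Its neighbour in the cluster, HOXB3, was at 8.79, 8.85 and 8.85 on the control arrays and 8.85, 8.82 and 8.89 on the depleted arrays. The groups overlapped, and HOXB3 did not pass (log2 fold change 0.02, adjusted p = 0.807, confidence interval -0.11 to 0.16). That of HOXB2 was 0.44 to 0.77, and the difference between the neighbours was not tested. HOXB9 was next in the cluster by size, at 0.18 (adjusted p = 0.0649), and HOXB5 lay below the median with its 3 control values exactly equal.

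HOXD10, a gene of limb and lumbar spinal cord patterning, was at 8.57, 8.55 and 8.72 on the control arrays and 8.98, 8.93 and 9.06 on the depleted arrays, and the groups did not overlap (log2 fold change 0.38, SE 0.0712, adjusted p = 0.0112). The genes on both sides of it had smaller differences that did not pass, 0.16 for HOXD9 (adjusted p = 0.170) and 0.13 for HOXD11 (adjusted p = 0.175). HOXD8 was at 8.24, 8.35 and 8.24 on the control arrays and 8.31, 8.25 and 8.24 on the depleted arrays, with overlapping groups (log2 fold change -0.01, adjusted p = 0.959). HOXD4 depended on the probeset. The brightest was 0.15 higher without passing (adjusted p = 0.224), whereas the other rose by 0.37 (adjusted p = 0.0440). HOXD13, at the end of the cluster, was at 6.68, 6.92 and 7.10 on the control arrays and 6.58, 6.58 and 6.68 on the depleted arrays and did not pass (log2 fold change -0.29, adjusted p = 0.126).

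None of the 7 HOXC genes passed, against 33.4% of all genes. The HOXC genes were not matched to all genes for level. Their median distance from the array median was 0.32, which was less than over all genes. Their log2 fold changes ran from -0.02 to 0.12. HOXC8, a thoracic patterning gene, was at 7.52, 7.55 and 7.41 on the control arrays and 7.73, 7.55 and 7.55 on the depleted arrays (log2 fold change 0.12, adjusted p = 0.339). HOXC4 was at 7.22, 7.22 and 7.17 on the control arrays and 7.16, 7.24 and 7.18 on the depleted arrays (log2 fold change -0.01, adjusted p = 0.928). In both, the ranges of the groups overlapped. The measured HOXA gene, HOXA2, was at 6.05, 6.48 and 6.56 on the control arrays and 6.07, 6.14 and 6.20 on the depleted arrays, with control replicate 1 below all other arrays (log2 fold change -0.23, adjusted p = 0.314). Without that array HOXA2 fell past the test (log2 fold change -0.38, adjusted p = 0.0202).

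**Figure D4:**
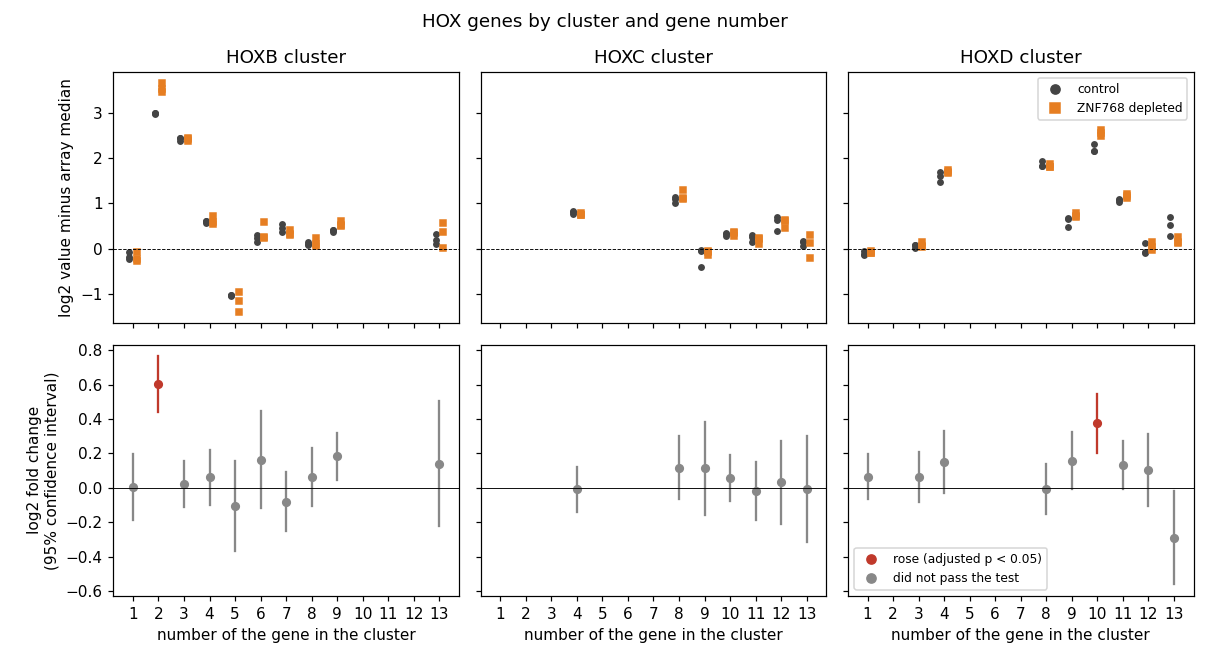
Upper row, log2 value minus array median on each of the 6 arrays for the HOXB, HOXC and HOXD genes in order of their number (x axis), with circles for control and squares for ZNF768 depleted cells. Lower row, log2 fold change with 95% confidence interval, in which only HOXB2 at 0.60 and HOXD10 at 0.38 passed the test.

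HOX proteins bind DNA together with the PBX, MEIS and PKNOX homeodomain proteins. Of 7 such genes measured, 2 rose and 2 fell, where 16.6% of all genes rose and 16.8% fell, and the median log2 fold change was 0.14. PBX2 was at 8.17, 8.26 and 8.21 on the control arrays and 9.09, 9.003 and 9.07 on the depleted arrays in the brightest of its 6 probesets (log2 fold change 0.84, SE 0.0576, adjusted p = 2.12e-04), and over the mean of these probesets the change was 0.78. PBX3 was at 9.31, 9.35 and 9.40 on the control arrays and 10.12, 10.10 and 10.19 on the depleted arrays (log2 fold change 0.78, SE 0.0581, adjusted p = 2.81e-04). Both were free of overlap and rose to 1.79 and 1.72 times the control. MEIS2 fell (log2 fold change -0.26, SE 0.0699, adjusted p = 0.0413). PKNOX1 fell as well (log2 fold change -0.27, SE 0.0568, adjusted p = 0.0178). MEIS2 lost its call without control replicates 1, 2 and 3 or depleted replicates 1 and 2 in turn (adjusted p = 0.0501 to 0.120), and PKNOX1 without control replicate 2 or depleted replicates 1 and 2 in turn (adjusted p = 0.0523 to 0.0642). MEIS2 was also not called on the mean of its probesets (-0.14, adjusted p = 0.254). Of 5 measured genes that act upstream of HOX genes, 1 rose and 1 fell, where 33.4% of all genes passed in either direction. GDF11, a TGF-beta ligand of axial patterning, rose (log2 fold change 0.71, SE 0.0579, adjusted p = 3.81e-04), and MEN1, a subunit of the histone methyltransferase complex that maintains HOX expression, fell (log2 fold change -0.33, SE 0.0680, adjusted p = 0.0157). MEN1 was no longer called without control replicate 3 or depleted replicates 1 and 2 in turn (adjusted p = 0.0510 to 0.0531).

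Of the 5 sine oculis homeobox genes measured, 2 rose and none fell, which is 40% past the test, against 33.4% of all genes. SIX4, a factor of muscle and sensory placodes, was at 8.54, 8.60 and 8.54 on the control arrays and 9.39, 9.27 and 9.54 on the depleted arrays. This was the largest rise of the 104 genes, to 1.79 times the control, without overlap (log2 fold change 0.84, SE 0.0806, adjusted p = 7.35e-04). SIX6, a factor of the eye and pituitary, lies in the same cluster on chromosome 14 and was at 6.10, 6.13 and 6.01 on the control arrays and 6.46, 6.64 and 6.45 on the depleted arrays. The control arrays were below the array median and the depleted arrays just above it (log2 fold change 0.44, SE 0.0757, adjusted p = 0.00781). SIX5, on chromosome 19, was at 7.81, 7.74 and 7.81 on the control arrays and 7.96, 7.80 and 7.91 on the depleted arrays and did not pass (log2 fold change 0.10, adjusted p = 0.316). SIX2 and SIX3 had log2 fold changes of 0.17 and 0.16, neither past the test.

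As neighbours that rose together, SIX4 and SIX6 are shown with their upstream regions, taken in the same way, SIX4 from chr14:60724352-60724601 on the minus strand and SIX6 from chr14:60508896-60509145 on the plus strand. Capitals again mark CCAAT on either strand.
SIX4: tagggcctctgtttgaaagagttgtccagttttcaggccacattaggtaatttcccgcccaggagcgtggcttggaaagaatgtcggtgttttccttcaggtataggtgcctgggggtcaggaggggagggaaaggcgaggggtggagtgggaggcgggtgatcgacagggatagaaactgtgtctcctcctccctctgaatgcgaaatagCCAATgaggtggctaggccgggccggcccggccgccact
SIX6: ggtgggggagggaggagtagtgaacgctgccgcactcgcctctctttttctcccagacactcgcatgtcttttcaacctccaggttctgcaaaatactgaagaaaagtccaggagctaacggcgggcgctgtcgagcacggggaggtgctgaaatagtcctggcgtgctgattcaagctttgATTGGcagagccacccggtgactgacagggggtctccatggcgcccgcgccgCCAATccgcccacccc
SIX4 had 1 copy and SIX6 2, and the GC content was 58% in SIX4 and 60% in SIX6. RefSeq upstream regions were matched for 67 of the 104 genes, among them 7 that rose and 7 that fell. CCAAT on either strand was in 47.8% of the 67, in 5 of the 7 that rose and in 3 of the 7 that fell, against 32.7% of 27305 upstream regions of the same length. The GC box GGGCGG, either strand, was in 61.2% of the 67, in all 7 that rose and in 4 of the 7 that fell, against 41.3% of all. The TATA box TATAAA, either strand, was in none of the 14, in 11.9% of the 67 and in 11.4% of all. The median GC content was 65.2% in the members and 57.6% in all regions. These groups are small, and no test was made on them.

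Sine oculis proteins act with EYA coactivators and DACH corepressors. EYA1 was at 8.998, 9.26 and 9.26 on the control arrays and 8.16, 7.88 and 8.25 on the depleted arrays and fell to 0.475 of the control without overlap (log2 fold change -1.07, SE 0.122, adjusted p = 0.00138). EYA3 also fell (log2 fold change -0.31, SE 0.0718, adjusted p = 0.0238), but not without control replicates 2 and 3 or depleted replicates 1 and 2 in turn (adjusted p = 0.0640 to 0.0818). The other 4 measured partners, EYA2, EYA4, DACH1 and DACH2, did not pass. In all, 2 of 6 fell and none rose, where 16.8% of all genes fell and 16.6% rose.

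None of the 8 LHX genes, LIM-homeodomain factors of neuronal identity, passed the test, against 33.4% of all genes. Their log2 fold changes ranged from -0.22 to 0.26. Of the 8, 3 lay below the median on all arrays, where 4.3% of all genes passed. LHX6, a factor of cortical interneurons, was at 8.42, 8.50 and 8.46 on the control arrays and 8.42, 8.34 and 8.41 on the depleted arrays (log2 fold change -0.07, adjusted p = 0.452). LHX3, a factor of motor neurons and the pituitary, was at 8.30, 8.15 and 8.26 on the control arrays and 8.40, 8.34 and 8.51 on the depleted arrays (log2 fold change 0.18, adjusted p = 0.134). The groups overlapped in LHX6 and not in LHX3. LIM-homeodomain proteins work through the cofactor LDB1 and its partners, and of 11 such genes measured, 3 rose and 1 fell, where 33.4% of all genes passed in either direction. SSBP2, which stabilises the LDB1 cofactor, rose to 2.10 times the control (log2 fold change 1.07, SE 0.0678, adjusted p = 1.59e-04). SSBP3, of the same family, rose too (log2 fold change 0.69, SE 0.0609, adjusted p = 5.13e-04), as did LDB1 itself (log2 fold change 0.45, SE 0.0540, adjusted p = 0.00178), which was picked after its value was seen. LMO4, a LIM-only protein that competes for LDB1, fell (log2 fold change -0.28, SE 0.0605, adjusted p = 0.0180), but not without control replicates 1 and 3 or depleted replicate 1 in turn (adjusted p = 0.0512 to 0.0560).

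None of the 8 PAX genes passed, against 33.4% of all genes, and they ranged from -0.17 to 0.27. PAX3, a neural crest factor, was at 8.35, 8.42 and 8.52 on the control arrays and 8.39, 8.21 and 8.19 on the depleted arrays (log2 fold change -0.17, adjusted p = 0.198). PAX8, a thyroid and kidney factor that is paralogous to PAX2, was at 7.59, 7.54 and 7.45 on the control arrays and 7.20, 7.45 and 7.47 on the depleted arrays (log2 fold change -0.16, adjusted p = 0.291). In both genes the depleted arrays lay lower on average, and the ranges of the groups overlapped. PAX6, the eye factor, was on both sides of the array median (log2 fold change -0.10, adjusted p = 0.307), and PAX2 had a difference of 0.23 (adjusted p = 0.0784).

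Outside these families, 38 other homeobox genes were measured, of which 1 rose and 7 fell, where 16.6% of all genes rose and 16.8% fell. The median log2 fold change was 0.03. ALX1, a craniofacial factor, rose (log2 fold change 0.38, SE 0.0766, adjusted p = 0.0148), but not without control replicate 3 or depleted replicate 1 in turn (adjusted p = 0.0507 to 0.0553). PRRX1, a factor of limb and craniofacial mesenchyme, was at 11.04, 11.07 and 11.06 on the control arrays and 10.40, 10.39 and 10.36 on the depleted arrays and fell without overlap (log2 fold change -0.67, SE 0.0513, adjusted p = 3.06e-04). DLX3, a factor of skin, hair and teeth, fell as well (log2 fold change -0.83, SE 0.158, adjusted p = 0.0117). The other 5 that fell were ZEB2, DLX5, TGIF1, DLX1 and ZEB1, from -0.59 to -0.27, and are named after their values were seen.

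The labelled cell type was checked against glial markers, and markers of other cell types were read beside them. Over all genes, 16.8% fell and 16.6% rose past the test. Of 6 glial markers measured, VIM, CD44 and NES lay above the median and fell (log2 fold changes -0.71, -0.70 and -0.49). GFAP and OLIG2 lay about 0.5 above the median without passing, and S100B lay below it. The sum of these markers on the linear scale was 6204 to 6298 on the control arrays and 3825 to 4070 on the depleted arrays. Of 8 listed myeloid markers, 5 were measured. Among these, CD68, EVI2B and CSF1R fell, and the sum went from 7385 to 7553 down to 1176 to 1269. Most of this sum was CD68, without which it was 689 to 720.5 and 408 to 483, with TYROBP at 0.67 and CD14 at -0.43 from the median. Of 3 endothelial markers KDR fell, with sums of 1381 to 1521 and 864 to 879. Both neuron and both oligodendrocyte markers measured did not pass, with sums of 203 to 219 and 221 to 248, and of 172 to 192 and 170 to 208. The sums were lower on the depleted arrays in the glial, myeloid and endothelial lists and higher in the neuron list, without overlap. The endothelial and neuron differences depended on the brightest marker. Without KDR the endothelial sums overlapped (158 to 174 on control, 139 to 168 on depleted arrays). Without SYP the neuron sums overlapped as well (58.82 to 74.63 and 74.61 to 76.63). The part of these markers in the changes of the transcription factors was not tested.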

How the data were processed

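RNA of 3 control and 3 ZNF768 depleted U87 samples was read on Affymetrix Human Gene 2.0 ST arrays. The authors deposited log2 values for each probeset, made with the RMA method of the oligo package (background correction, normalization between arrays and summary of probes). Tool versions are not given in the sources used here, and scanner files were not used. Precision depends on the number of arrays, and p-values set the difference between groups against the spread between biological replicates, as moderated by limma.

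Groups came from the labels. limma 3.58.1 in R 4.3.3 was fitted to all 53617 probesets at once (lmFit, then eBayes with default settings, no covariate). P-values were adjusted by Benjamini-Hochberg across all of these, and 0.05 was the threshold. The platform table gave names to 16098 probesets, and their symbols were updated through Entrez identifiers, which all matched RefSeq. Of the members, 6 had several probesets. SE is limma's moderated standard error, and folds are unlogged differences of mean log2 values. The test was run on simulated independent probesets, of which only a small part was changed. Recovery was required there only for changes larger than that of any member, so the check does not measure how reliable the calls here are. Upstream sequences came from RefSeq, GRCh38.p14.

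The members and the gene lists were chosen with earlier results of these data known. Named were ZNF768, up to 12 rises and 12 falls past the test, the 2 brightest members in each of 9 families and up to 2 rises and 2 falls in each list. All further genes were picked with their values in view. The settings tried were cyclic loess, centring on array medians, a fit to probesets above the median or to named probesets, averages over a gene's probesets, trend and robust eBayes, array weights, a replicate block, an adjusted p of 0.01, and the removal of each sample. The removal of probesets whose values were equal within a group was chosen after seeing the data.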

Additional observations from a re-analysis of the deposited data

How the results depend on the processing

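The 8 rises and 11 falls became 7 and 13 with cyclic loess, 7 and 12 with centring on array medians, 10 and 14 among probesets above the median, 11 and 14 among named probesets, 9 and 11 with the mean of a gene's probesets, and 9 and 12 with trend and robust eBayes. Array weights and the removal of probesets with equal values gave 8 and 11 again. At an adjusted p under 0.01, 5 members rose and 6 fell. Leaving out each sample in turn gave 6 to 8 rises and 8 to 13 falls, and a ZNF768 difference of -1.44 to -1.29. Replicate numbers did not pair the samples (correlations of same-numbered deviations -0.07, -0.02 and 0.02), and with the replicate number as a block 6 members rose and 8 fell, with ZNF768 at -1.36. Signs turned in 3 genes whose change was near 0. HOXB3 was at -0.011 with centring on array medians, and HOXD8 ran from -0.027 to 0.031 and HOXC4 from -0.031 to 0.0057 when a sample was left out. FOXI2 lost its call with cyclic loess (adjusted p = 0.0747), centring (0.0672) and the block (0.0769). FOXK2, SOX5, FOXK1 and FOXF1 lost theirs with the block (0.0664, 0.0991, 0.0663 and 0.0887). Of the named genes other than ZNF768, 30 of 51 kept direction and call under all settings that tested them (SIX6 was not among the probesets above the median). Why the calls moved was not tested.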

Other observations

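Among the relatives left out of the families by name, FOXM1 and SOX30 had larger changes than any member. FOXM1, the forkhead factor of mitotic genes, was at 10.22, 10.32 and 10.19 on the control arrays and 6.52, 6.63 and 6.74 on the depleted arrays and fell (log2 fold change -3.61, SE 0.0777, adjusted p = 6.24e-06). SOX30, a SOX factor of the testis, was at 6.23, 6.17 and 5.96 on the control arrays and 8.12, 7.83 and 8.34 on the depleted arrays and rose (log2 fold change 1.98, SE 0.142, adjusted p = 2.55e-04). Neither gene overlapped between the groups, and SOX30 went from below to above the array median. FOXJ1, the forkhead factor of motile cilia, was at 6.83, 6.82 and 6.62 on the control arrays and 7.21, 7.40 and 6.91 on the depleted arrays and did not pass the test (log2 fold change 0.42, adjusted p = 0.0792). Among antisense and long noncoding genes of these loci, HOXA11-AS rose (log2 fold change 0.32, SE 0.0712, adjusted p = 0.0223). HOTAIR (0.12), HOTTIP (0.08), HOXA10-AS (0.23), HOXB-AS3 (-0.03) and SOX2-OT (0.24) did not pass.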
